A study of Caenorhabditis elegans with 12 samples.

Results

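The C-type lectin genes of Caenorhabditis elegans, which carry symbols of the form clec- and a number, were examined in whole embryos of 3 genotypes. They were taken by symbol, and measured values entered only the choice of probe set. A gene was a member where a probe set named it and no other gene, and its brightest probe set, by mean over all arrays, represents it. This gave 220 genes and 236 probe sets, of 17118 genes and 22548 tested probe sets in all. For 205 members there was 1 probe set, for 14 there were 2, and clec-78 had 3. A further 15 clec genes were covered only by probe sets that name several genes, and they were left out.

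A C-type lectin domain is a compact protein fold that in many animal proteins binds sugars with the help of calcium. Nematodes have a greatly expanded family of such proteins, most of them secreted and some membrane-bound. Many of the genes are expressed in the intestine, and sets of them change on contact with bacterial pathogens, where they are read as part of the innate immune response. Others act outside immunity, in the nervous system or as carriers of chondroitin chains.

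The embryos were at the 3-fold stage, late in elongation inside the eggshell, and total RNA of whole embryos was hybridised to Affymetrix arrays. The double mutant (strain JT6924) carried daf-19(m86) and daf-12(sa204), the single mutant (strain JT204) carried daf-12(sa204) alone, and the wild type was N2 Bristol (strain label JT5010). The daf-12 allele is shared by both mutant groups, so the double mutant against the single mutant is the comparison that differs in daf-19. The RFX transcription factor DAF-19 switches on genes of sensory cilia, and DAF-12 belongs to the nuclear hormone receptors.

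Of 4 double mutant columns, numbers 1 and 2 were identical and counted as 1 array, called array 1-2 here. The groups thus held 3, 4 and 4 arrays (double mutant, single mutant, wild type), few enough to limit the precision. Since no label says that replicates were separate cultures, p-values reflect only the spread among these samples. The log2 signal of daf-19 itself was 8.29 to 8.88 in the double mutant, 9.80 to 10.17 in the single mutant and 9.75 to 10.28 in wild type. The arrays of every genotype formed 2 sets, which no label mentions. On replicates 1 and 2 the poly-A spike-in controls averaged 4.08 to 4.24, and on replicates 3 and 4 they averaged 6.76 to 9.49. Marker lists for intestine (10 genes), body wall muscle (4 genes) and neurons (7 genes) averaged between 8.28 and 10.42 on every array, above the array medians of 6.20 to 6.36.

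Most C-type lectin genes gave low signal in these embryos. The median log2 signal in wild type was 4.84 over the 220 members, with quartiles of 4.22 and 5.77. Over all genes the median was 6.28, with quartiles of 4.77 and 8.23. Signal above the array's median on all 11 arrays was found for 29 members, on none for 163, and on some for 28. The mean over the arrays lay above the median of all probe sets, 6.29, for 42 members or 19.1%, against 50.1% of all genes. These 42 are called the brighter members below, and the other 178 the dimmer ones. A probe set's signal also depends on how well its probes bind, so brightness does not order the genes by transcript level.

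**Figure D1:**
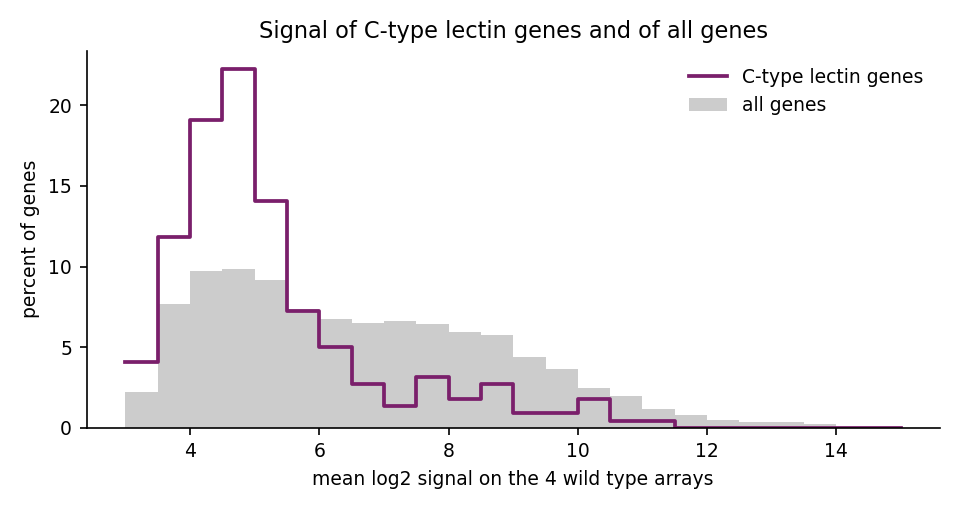
Percent of genes (y axis) by mean log2 signal over the 4 wild type arrays (x axis), for the 220 C-type lectin genes (line) and all 17118 genes (grey bars). The C-type lectin genes peak between 4 and 5, with a median of 4.84, and a thin tail reaches 11.10.

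The 12 members with the highest wild type signal were clec-266, clec-63, clec-17, clec-230, clec-174, clec-66, clec-83, clec-87, clec-5, clec-72, clec-180 and clec-78. Their means ran from 8.75 for clec-78 to 11.10 for clec-266. Among them clec-17 and clec-66 are known as genes that respond to pathogens, and clec-87 encodes a chondroitin proteoglycan, also named CPG-5.

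The members lay on every chromosome, with 77 on V, 47 on II, 45 on IV, 31 on I, 17 on III and 3 on X. Another clec gene was the direct neighbour of 116 of them. For 30 members the probe set that stood for the gene holds probes shared between sequences by the array design, clec-174, clec-266, clec-41 and clec-65 among them. Signal of near-identical relatives cannot be separated there. Of the members, 18 are pseudogenes in the gene table used for names.

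No C-type lectin gene passed the test in any of the 3 comparisons of genotypes. With limma and Benjamini-Hochberg adjustment over all 22548 probe sets, 0 of 220 were called at an adjusted p under 0.05. Between the double mutant and the single mutant, 0.0577% of all probe sets were called lower and 0.0% higher. Between the double mutant and wild type, 0.102% were called lower and 0.0133% higher. Between the single mutant and wild type, 0.0% were called lower and 0.0133% higher. At an unadjusted p under 0.05 the members numbered 2 lower and 4 higher, 3 lower and 8 higher, and 1 lower and 6 higher in the same order. Over all genes those shares were 2.67% lower and 2.45% higher, 2.19% and 2.0%, and 0.905% and 2.07%. The smallest adjusted p of a member in this fit was 0.582, 0.878 and 0.9998. With the replicate number as a block it was 0.283, 0.431 and 0.640, again with 0 members called, where 0.0621%, 0.142% and 0.00887% of all probe sets were called. Blocking on the set of arrays instead gave smallest values of 0.220, 0.295 and 0.334, also with 0 members called, where 0.213%, 0.226% and 0.0222% of all probe sets were called.

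With all arrays together the medians of the members lay close to those of all genes. Within each set of arrays they lay further apart. The median log2 difference of the double mutant from the single mutant on all arrays was 0.0046 over the members and -0.02 over all genes. Against wild type the double mutant's medians were -0.0307 and -0.0338. For the single mutant against wild type they were -0.01 and -0.02. Differences under 0.5 in size were found for 208, 197 and 205 of the 220 members in these 3 comparisons. The precision limits what could be seen: the median standard error of a difference was 0.34, 0.34 and 0.31 for the brighter members and 0.21, 0.21 and 0.19 for the dimmer ones. A test that was not passed does not show that a gene was at the same level. On replicates 1 and 2 the double mutant against the single mutant gave medians of -0.10 over the members and -0.04 over all genes. On replicates 3 and 4 it gave 0.13 and 0.03, and members below zero fell from 166 to 70. The single mutant against wild type gave 0.14 and 0.02, then -0.20 and -0.05, and members above zero fell from 180 to 58. The double mutant against wild type moved less, with 0.03 and -0.03, then -0.07 and -0.03. On replicates 1 and 2 the double mutant is array 1-2 alone. These medians over all genes are not split by brightness, while 178 of the 220 members were dimmer ones. The part of brightness in these shifts was not tested.

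**Figure D2:**
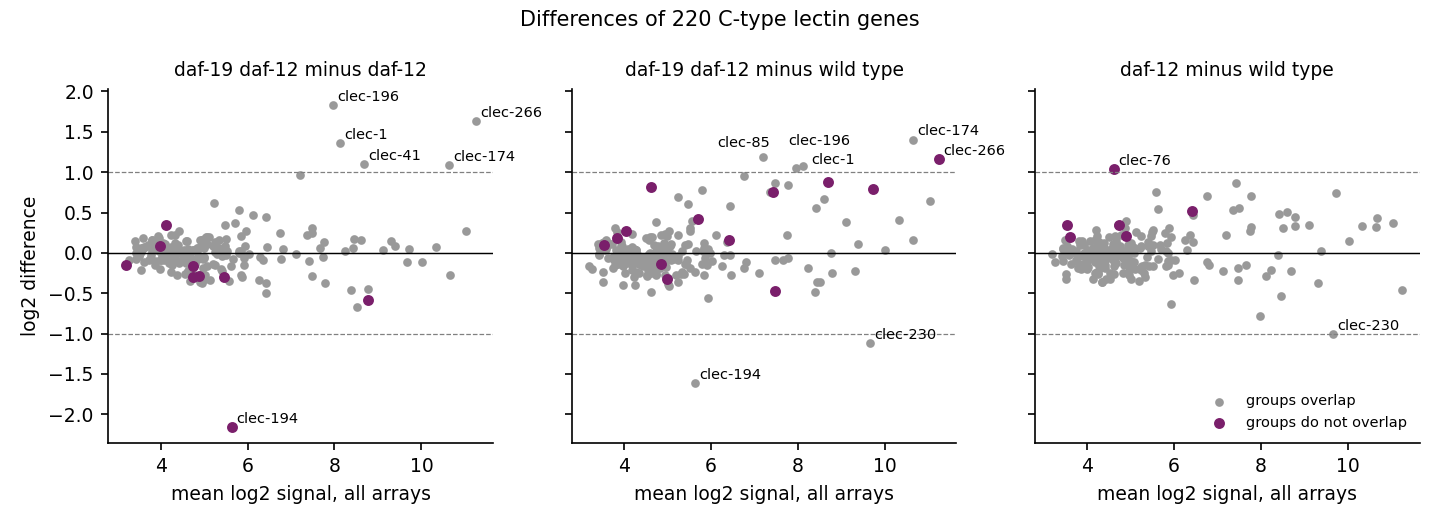
Difference in log2 signal (y axis) against the mean log2 signal over 11 arrays (x axis) for the 220 C-type lectin genes, in the 3 comparisons of genotypes (daf-12 is the single mutant, daf-19 daf-12 the double mutant). Dashed lines mark a difference of 1 in either direction, and purple points are genes whose arrays do not overlap between the groups. Most points lie within 0.5 of zero, and most of those past 1 are brighter members.

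A difference over 1 on the log2 scale, regardless of any test, was seen for 6 members between the double mutant and the single mutant, 5 of them brighter members. Over all genes this share was 1.52%. Between the double mutant and wild type there were 7 such members, 6 of them brighter, and 1.04% of all genes. Between the single mutant and wild type there were 2, 1 of them brighter, and 0.654% of all genes. The arrays of the double mutant lay wholly below those of the single mutant for 7 members and wholly above for 2, against 3.23% and 2.05% of all genes. Against wild type they lay wholly below for 3 and wholly above for 10, against 2.82% and 1.6%. The single mutant arrays lay wholly below wild type for 0 members and wholly above for 6, against 0.678% and 0.9%.

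The member furthest below the single mutant in the double mutant was clec-194, a dimmer member on chromosome IV. Its log2 signal was 4.89, 3.95 and 3.97 on the double mutant arrays 1-2, 3 and 4. It was 5.22, 5.35, 7.71 and 7.42 on single mutant arrays 1 to 4, and 4.68, 5.80, 6.16 and 6.89 on wild type arrays 1 to 4. Every double mutant array was lower than every single mutant array, whereas wild type array 1 lay below double mutant array 1-2. In both control genotypes replicates 3 and 4 were higher than replicates 1 and 2. Double mutant arrays 3 and 4 lay below 4.22, the lower quartile of the members in wild type, so the signal there was low. The difference from the single mutant was -2.15 ± 0.67 (SE; limma adjusted p = 0.710), and that from wild type was -1.61 ± 0.67 (limma adjusted p = 0.9998).

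Genes of sensory cilia are known targets of DAF-19, and their values are given here for reference only. The gene clec-194 was picked from these data as the largest fall among 220 members. The 7 listed cilia genes che-13, osm-5, osm-6, osm-1, bbs-1, bbs-8 and che-2 averaged 5.14 to 5.46 on the double mutant arrays. They averaged 6.25 to 7.41 on the single mutant arrays and 6.64 to 7.20 on the wild type arrays. All 7 lay below the single mutant and below wild type in the double mutant, with median differences of -1.51 and -1.67 and with 0 and 2 of them called by limma. The cilia list averaged 6.25 and 6.54 on single mutant arrays 1 and 2 and 7.21 and 7.41 on arrays 3 and 4, the same 2 arrays on which clec-194 was high. In wild type it averaged 6.64, 7.02, 6.70 and 7.20 on arrays 1 to 4, so array 3 lay below array 2 for the cilia list and above it for clec-194. The list of 7 neuronal genes averaged 8.46, 8.33, 8.96 and 9.20 on single mutant arrays 1 to 4. On wild type arrays 1 to 4 it averaged 8.61, 9.08, 8.31 and 8.97, lowest on array 3. On double mutant arrays 1-2, 3 and 4 it averaged 8.89, 8.28 and 8.44. The part of either list in the values of clec-194 was not tested. Whether fewer cells of a type or less RNA per cell stands behind a lower signal cannot be told apart in whole embryos.

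Above the single mutant in the double mutant stood clec-196, clec-266, clec-1, clec-41, clec-174 and clec-85. The brightest of them, clec-266 on chromosome X, read 11.28, 12.70 and 12.82 on double mutant arrays 1-2, 3 and 4. It read 9.81, 11.76, 10.47 and 10.51 on the single mutant arrays and 11.25, 11.05, 10.99 and 11.11 on the wild type arrays. The double mutant lay above all wild type arrays and overlapped the single mutant through single mutant array 2. The differences were 1.63 ± 0.44 from the single mutant (limma adjusted p = 0.582) and 1.17 ± 0.44 from wild type (limma adjusted p = 0.9998).

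The signal of clec-196, on chromosome IV, was 7.94, 9.72 and 9.39 in the double mutant. It was 6.09, 8.38, 7.30 and 6.98 in the single mutant and 8.43, 7.09, 8.16 and 8.18 in wild type. Double mutant arrays 3 and 4 lay above every other array, and array 1-2 lay within both other groups. The difference from the single mutant was 1.83 ± 0.55 (limma adjusted p = 0.685).

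The same 2 arrays stood out for clec-1 on chromosome V, which read 7.42, 9.79 and 9.80 in the double mutant. Its single mutant arrays read 8.24, 6.99, 7.36 and 7.98, and its wild type arrays 7.36, 7.26, 8.61 and 8.49. The groups overlapped in both comparisons, and the difference from the single mutant was 1.36 ± 0.58 (limma adjusted p = 0.984).

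The gene clec-85, whose product is known as part of the response under the p38 kinase PMK-1, read 6.50, 8.73 and 8.71 in the double mutant. The single mutant arrays read 7.54, 6.93, 6.96 and 6.66, and the wild type arrays 5.71, 6.45, 7.69 and 7.34. Array 1-2 was below all 4 single mutant arrays, and arrays 3 and 4 were above all of them. For clec-174, next to other clec genes on chromosome IV, single mutant array 1 at 12.28 was higher than any other array, and single mutant array 3 at 8.89 the lowest.

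As for clec-266, all double mutant arrays of clec-41 on chromosome V lay above wild type. Its product is known to act against Bacillus thuringiensis. It read 9.04, 9.39 and 9.80 in the double mutant against 8.16, 8.64, 8.52 and 8.80 in wild type, with no overlap. The single mutant arrays read 9.22, 7.80, 7.96 and 8.25, and array 1 overlapped the double mutant. The differences were 0.88 ± 0.32 from wild type (limma adjusted p = 0.9998) and 1.10 ± 0.32 from the single mutant (limma adjusted p = 0.682).

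**Figure D3:**
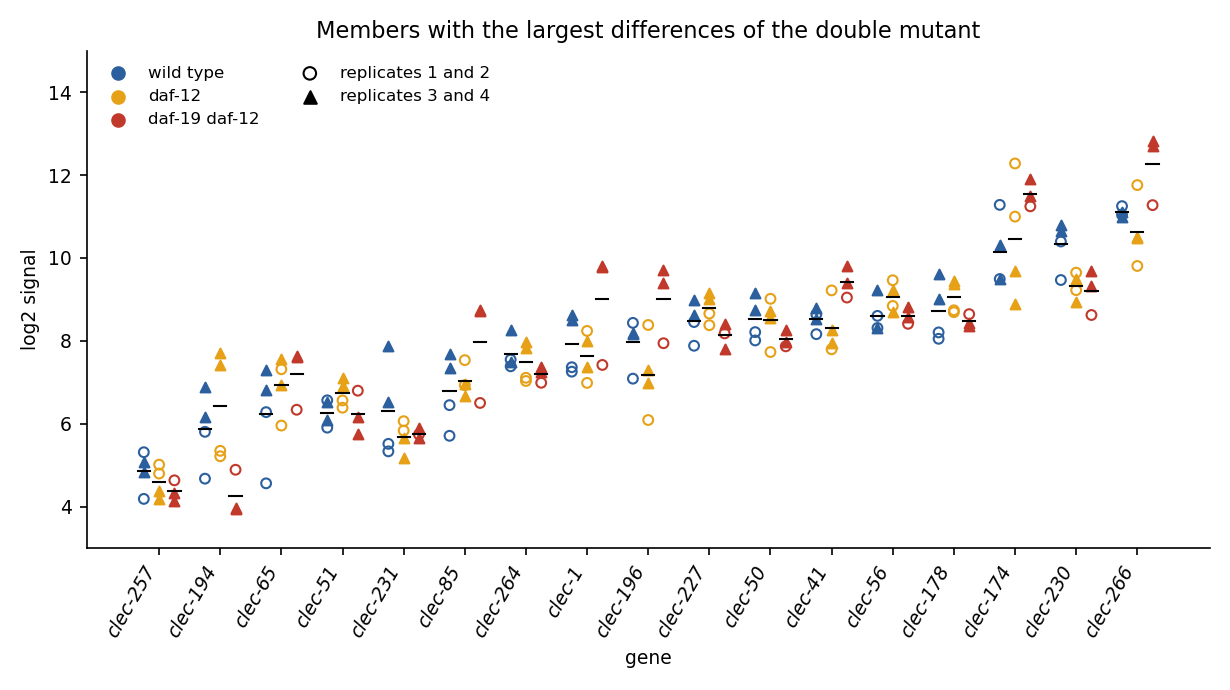
Log2 signal (y axis) on each of 11 arrays for the members with the largest differences of the double mutant in either direction (x axis, ordered by mean signal). Open circles are replicates 1 and 2, triangles replicates 3 and 4, and bars are group means. For clec-194, clec-85, clec-1, clec-196 and clec-266 the triangles of the double mutant stand apart and its open circle, array 1-2, lies near the other groups.

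Smaller differences below the single mutant were those of clec-227 (-0.67), clec-178 (-0.58), clec-51 (-0.50), clec-50 (-0.46) and clec-56. Only clec-178 among these 5 had no overlap, with 8.65, 8.43 and 8.36 in the double mutant against 8.69 to 9.44 in the single mutant.

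Both mutants had a lower mean than wild type for clec-230 on chromosome V. Its wild type arrays read 10.40, 9.47, 10.80 and 10.65. The double mutant read 8.62, 9.70 and 9.31, and the single mutant 9.65, 9.22, 8.94 and 9.48. Wild type array 2 lay among the mutants and the other 3 wild type arrays lay above all of them. The double mutant differed from wild type by -1.12 ± 0.34 (limma adjusted p = 0.878) and the single mutant by -1.01 ± 0.31 (limma adjusted p = 0.9998). These comparisons share the wild type arrays. The double mutant and the single mutant differed from each other by -0.11 ± 0.34. With replicates 1 and 2 alone the double mutant differed from wild type by -1.31, and with replicates 3 and 4 alone by -1.22. For the single mutant these values were -0.50 and -1.52, and the mutants differed from each other by -0.81 and 0.29.

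Both mutants had a higher mean than wild type for clec-76, on chromosome IV, a dimmer member. Its wild type arrays read 3.96, 4.11, 3.87 and 4.14, the single mutant arrays 4.62, 4.45, 5.44 and 5.72, and the double mutant arrays 4.61, 5.03 and 4.87. Every mutant array lay above every wild type array. The single mutant differed from wild type by 1.04 ± 0.26 (limma adjusted p = 0.9998) and the double mutant by 0.82 ± 0.29 (limma adjusted p = 0.9998). Further members above wild type in the single mutant were clec-74 (0.86), clec-163 (0.75), clec-72 (0.75), clec-67 (0.71) and clec-65 (0.70). The other members furthest below wild type in that mutant were clec-196 (-0.78), clec-231 (-0.64), clec-78 (-0.54), clec-266 (-0.46) and clec-87 (-0.37).

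Members were called between genotypes only within replicates 3 and 4. In a limma fit of replicates 3 and 4 alone, with 2 arrays a genotype, 10 members were called between these mutants, where 4.66% of all probe sets were called lower and 3.73% higher. The members called made up 1.36% lower and 3.18% higher. Lower in the double mutant were clec-194 by -3.61, clec-51 by -1.05 and clec-178 by -1.01. Higher were clec-196 and clec-174, each by 2.42, clec-266 by 2.27, clec-1 by 2.12, clec-85 by 1.91, clec-41 by 1.49 and clec-3 by 0.97. Their adjusted p values ran from 0.00406 for clec-194 and clec-266 to 0.0406 for clec-178.

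On replicates 1 and 2 alone, no probe set was called in any comparison, and the same 10 members gave other values. There clec-194 differed by -0.39, clec-266 by 0.49, clec-196 by 0.71 and clec-41 by 0.54. Between the mutants clec-85 differed by -0.73, clec-174 by -0.39, clec-1 by -0.19, clec-3 by -0.03 and clec-51 by 0.32. Each of these values was opposite in sign to that on replicates 3 and 4. The value of clec-178 was -0.07. In that set the double mutant is represented by array 1-2 alone.

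Lists for several tissues moved in the same contrast of the mutants, those for neurons and sperm furthest, and the intestine list moved less. The median difference of 7 neuronal genes was 0.75 on replicates 1 and 2 and -0.92 on replicates 3 and 4. For the sperm list it was -0.54 and 0.94, and for 10 intestinal genes -0.16 and 0.07. The lists for pharynx (0.22 and -0.62), body wall muscle (0.21 and -0.41) and glia (0.33 and -0.35) also went from above to below zero. Those for germ cells (-0.15 and 0.135) and for oocyte and early embryo (-0.19 and 0.18) went from below to above zero. The epidermis list (0.01 and 0.22) and the cilia list (-1.01 and -1.95) kept their sign. The 23 genes of the sperm list are all of 1 family, taken by msp symbols. The sperm list averaged 6.75 and 6.53 on double mutant arrays 3 and 4 and 5.84 and 5.70 on single mutant arrays 3 and 4. The part of these lists in the values of the lectin genes was not tested.

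Against wild type, replicates 3 and 4 alone gave 3 called members, where 0.577% of all probe sets were called lower and 0.297% higher. They were clec-194 by -2.57 (limma adjusted p = 0.0113), clec-196 by 1.39 (limma adjusted p = 0.0326) and clec-266 by 1.71 (limma adjusted p = 0.0102). Between the single mutant and wild type 0 members were called there, with 0.0% of all probe sets called lower and 0.0577% higher.

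Whether a difference between genotypes itself differed between the sets was tested with an interaction term in limma. No probe set was called in any of the 3 comparisons, 0.0% of 22548, and the smallest adjusted p of a member was 0.113. At an unadjusted p under 0.05, 21, 12 and 29 members differed between the sets, against 18.2%, 8.09% and 17.5% of all genes. The largest such gaps in the contrast of the mutants were -3.21 for clec-194, 2.81 for clec-174 and 2.65 for clec-85. The values within each set are therefore a description of its arrays.

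**Figure D4:**
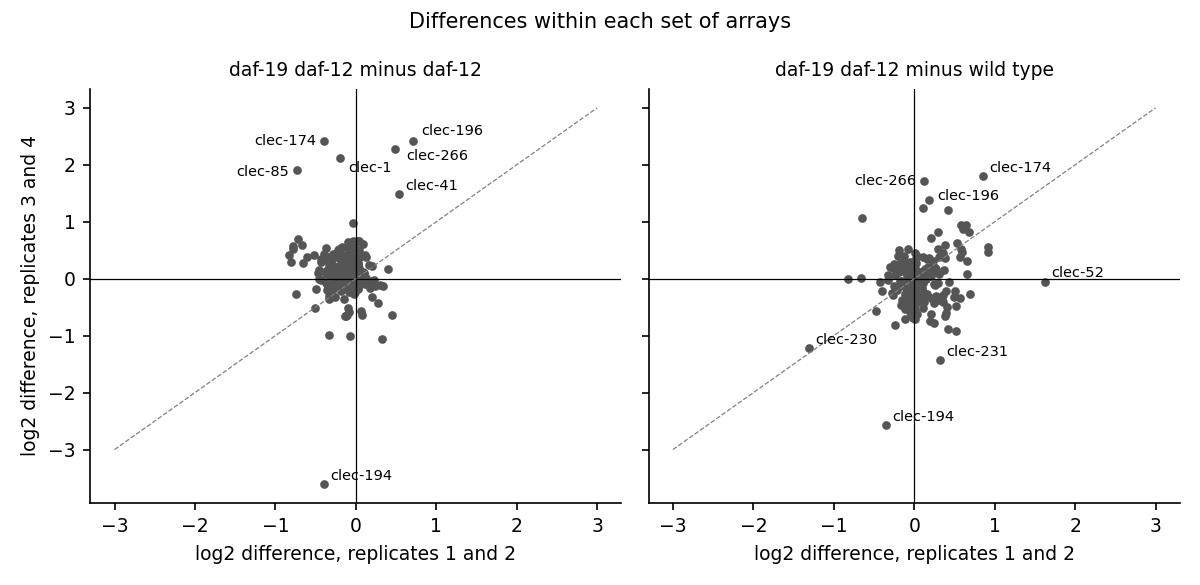
Log2 difference of the double mutant from the single mutant (left) and from wild type (right), on replicates 3 and 4 (y axis) against replicates 1 and 2 (x axis), for the 220 C-type lectin genes. The dashed line marks equal differences. In the left panel clec-194 lies at -3.61 and 7 members stand near or above 1 on replicates 3 and 4, while on replicates 1 and 2 the same genes lie between -0.73 and 0.71.

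More members were called between the sets of arrays than between any genotypes. With genotype in the limma fit, 26 members were lower and 17 higher on replicates 3 and 4 than on 1 and 2, or 11.8% and 7.73%. Of all genes 12.7% were lower and 11.1% higher. The direction went with brightness: 0 of the 42 brighter members were lower and 11 were higher, and 26 of the 178 dimmer members were lower and 6 higher. Of all genes above the same median 7.17% were lower and 16.7% higher, and of those below it 18.3% were lower and 5.42% higher. Members higher on replicates 3 and 4 included clec-65 by 1.17, clec-26 by 1.13, clec-1 by 1.08, clec-67 by 1.02, clec-62 by 0.92 and clec-5 by 0.88. Members lower there included clec-185 (-0.95), clec-40 (-0.92), clec-158 (-0.88), clec-90 (-0.86), clec-99 (-0.84) and clec-59 (-0.82).

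The brighter members spread widely among arrays. The SD over the 11 arrays had a median of 0.52 over the 42, against 0.40 over all genes above the same median. For the 178 dimmer members it was 0.25, against 0.28. The 8 members with the largest SD were clec-194, clec-174, clec-196, clec-1, clec-85, clec-65, clec-266 and clec-67, from 1.29 down to 0.86. The signal spanned under 1 over the arrays for 128 members and over 2 for 19.

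A few arrays held many of the extreme values. Wild type array 1 held the lowest value of 16 of the 42 brighter members, or 38.1%, against 18.4% of all brighter genes. The highest value of 11, or 26.2%, was on single mutant array 1, against 7.04% of all brighter genes. The mean over the 42 was 7.72 on wild type array 1, 8.53 on single mutant array 1, and 8.53 and 8.55 on double mutant arrays 3 and 4. The intestine list, of genes such as elt-2, ges-1 and vha-6, averaged 9.68 on that wild type array, its lowest, and 10.03, 10.07 and 10.04 on those 3 arrays, its highest. The other arrays did not keep this order. On wild type arrays 2, 3 and 4 the list averaged 9.75, 9.85 and 9.74, and the 42 members 7.9, 8.41 and 8.38. On single mutant arrays 2, 3 and 4 the list averaged 9.84, 9.91 and 9.78, and the 42 members 8.02, 8.19 and 8.15. Double mutant array 1-2 had 9.76 and 8.03. The part of the intestine list in the spread of the lectin genes was not tested.

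On all 11 arrays, no pathogen-response gene of the family was called between genotypes. On replicates 3 and 4 alone clec-41 and clec-85 were called between the mutants, as given above. All 17 on the list were measured, 10 of them as brighter members, and 0 were called by limma in any comparison without a block. At an unadjusted p under 0.05 there was 1, clec-41, in each comparison of the double mutant and 0 between the single mutant and wild type. The median difference was 0.00 between the double mutant and the single mutant, with 9 of 17 above zero. It was 0.13 against wild type for both the double mutant and the single mutant, with 11 of 17 above zero each. Within the sets these medians moved: the double mutant against the single mutant gave -0.28 on replicates 1 and 2 and 0.34 on replicates 3 and 4. The single mutant against wild type gave 0.54 and -0.19.

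Single genes of the list had large spreads within a genotype. The gene clec-67, known as a target of the p38 pathway, ranged from 5.89 to 8.14 in wild type and from 7.15 to 8.58 in the single mutant. The gene clec-60, which is known to respond to Staphylococcus aureus, was dim, at 3.43 to 5.01 over all arrays. The genes clec-39 and clec-49, which protect against Serratia marcescens, gave differences between -0.19 and 0.07 in the 3 comparisons. For clec-42, a partner of clec-41 in defence, the difference of the double mutant from the single mutant was -0.05 ± 0.42.

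Other genes of the immune response were not called either. Of the p38 immune pathway, 6 of 7 listed genes were measured, with 0 called and medians of 0.27, 0.18 and 0.06 in the 3 comparisons. Of the immune regulators, 10 of 11 were measured, with 0 called. The 67 measured effector genes, which include lysozymes and saposin-like proteins, had 0 called and medians of -0.08, -0.01 and 0.04. Single families among them lay further from zero. Between the double mutant and the single mutant the medians were -0.42 for fipr genes, with 7 of 8 below zero, and -0.36 for irg genes, with 6 of 8. Between the single mutant and wild type they were 0.34, with 8 of 8 above zero, and 0.35, with 6 of 8. The other families had medians from -0.26 to 0.06 and from -0.14 to 0.04 there. The 12 galectins, lectins of another fold, had 0 called.

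Members with roles outside immunity did not pass the test either. The gene clec-38 encodes a membrane protein that restrains axon outgrowth through UNC-40 and promotes presynaptic development. It read 5.10, 5.44 and 5.30 in the double mutant, 5.51, 5.36, 4.90 and 5.07 in the single mutant, and 5.63, 5.10, 5.70 and 5.60 in wild type. The groups overlapped, and the difference of the double mutant from the single mutant was 0.07 ± 0.21.

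The chondroitin proteoglycans clec-87 (CPG-5) and clec-88 (CPG-6) were both brighter members. In the double mutant clec-87 read 9.25, 9.35 and 9.23, a narrower spread than the 8.64 to 10.13 of the single mutant and the 8.39 to 10.38 of wild type. For clec-88 the wild type arrays read 7.13, 7.02, 8.11 and 8.24, so that replicates 3 and 4 stood above replicates 1 and 2. Against wild type the single mutant differed by -0.37 ± 0.42 for clec-87 and by -0.34 ± 0.27 for clec-88. The sign turned between the sets of arrays: the difference for clec-87 was 0.55 on replicates 1 and 2 and -1.29 on replicates 3 and 4. For clec-88 it was 0.37 and -1.05. The genotype by set interaction of that comparison had a limma adjusted p of 0.220 for clec-87 and 0.137 for clec-88.

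Runs of more than 3 neighbouring clec genes that held a measured member numbered 10. The run from clec-62 to clec-66 on chromosome II held 4 brighter members of 5. All 5 lay above wild type in the single mutant, by 0.04 to 0.70, and 4 of 5 did so in the double mutant, with a median of 0.64. On replicates 3 and 4 alone, only clec-65 was above wild type in the single mutant, by 0.19, and the other 4 lay between -0.13 and -0.03. Wild type array 1 held the lowest value of 4 of these 5, at 4.56 for clec-65 against 5.96 or more on every other array. In the run of 5 that starts with clec-57 on chromosome V, the single mutant lay above wild type for all 5, with a median of 0.31. The remaining runs were mostly of dimmer members. On chromosome IV, clec-67 to clec-174 form a run, and clec genes continue beyond it to clec-78 with a few other genes between them. This longer stretch was picked after its values were seen and is shown as a description.

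**Figure D5:**
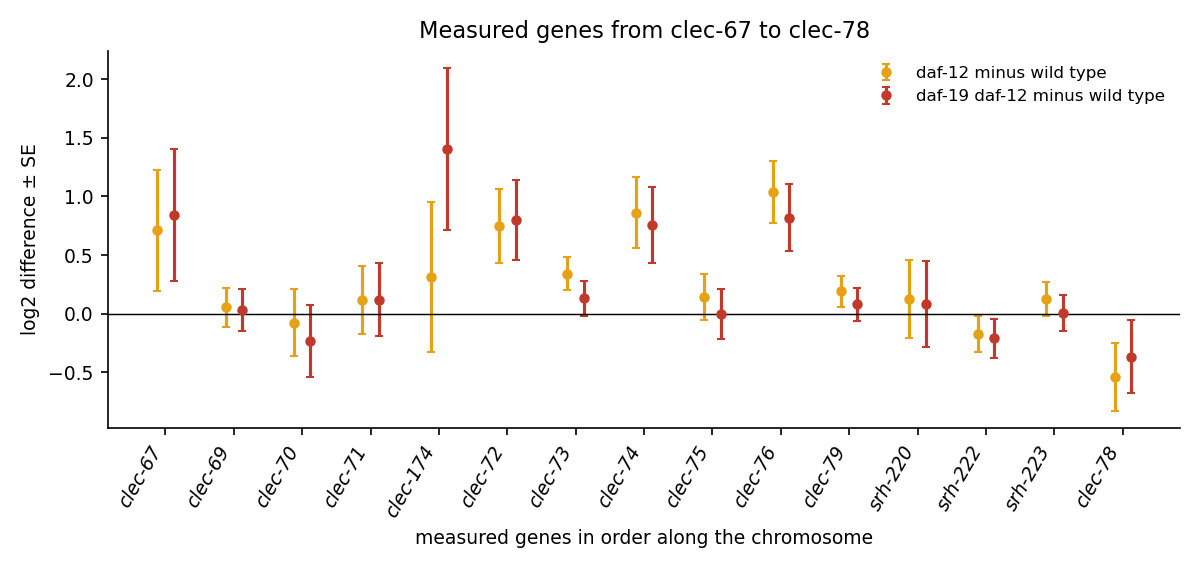
Log2 difference from wild type (y axis, with the standard error) of the measured genes from clec-67 to clec-78 on chromosome IV, in their order along it (x axis), for the single mutant and the double mutant. The points of clec-67, clec-72, clec-74 and clec-76 lie above 0.7 in both mutants, and clec-78 lies below zero in both. Both comparisons share the wild type arrays.

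Over the 15 members with more than 1 probe set, a gene's probe sets gave differences within 0.36 of each other in every comparison. That gap is larger than many of the differences, and for 8 of the 15 genes the probe sets differed in sign in at least 1 comparison. The level differed by up to 3.84 between the probe sets of clec-78.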

How the data were processed

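The authors deposited log2 values, from 2.78 to 14.71, made with RMA (version not given) per the submitters' processing notes. The 12 columns were all mapped to samples. After removal of 77 controls, 22548 probe sets were tested. Genes were named from the platform annotation, and a WBcel235 gene table served only for names, chromosomes and neighbours. No sequence was used here.

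The 3 genotypes entered 1 linear model without a block, over 11 arrays (limma 3.58.1, functions lmFit and eBayes, R 4.3.3). Two-sided p-values were adjusted over every tested probe set (Benjamini-Hochberg) and called under 0.05. The fit was tested on simulated data. Alternatives were blocks for replicate number and set of arrays, each set alone, leaving out each array, brighter probe sets alone, all 12 columns, median centring, probe sets of 1 gene by design, and the mean of a gene's probe sets. Deviations from group means of equally numbered arrays correlated at 0.22 to 0.29 between the double mutant and the single mutant and at 0.33 to 0.49 for the double mutant with wild type. For the single mutant with wild type they ran from -0.03 to 0.67. Array 1-2 entered the replicate block as number 1.

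The members, lists, the split of the arrays and the rule for named genes were chosen with earlier results of these data known. Named were the 6 members with the largest differences each way per comparison, the 12 brightest, the listed genes, the 8 with the largest spread, up to 8 each way between the sets of arrays, members called in a fit, and runs of over 3 neighbours. Counts of non-overlapping arrays include members outside this rule. The gene clec-3 was named for its call within replicates 3 and 4.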

Additional observations from a re-analysis of the deposited data

Results flagged for a closer look

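In 5 of 106 groups of 4 arrays (53 named members in the single mutant and in wild type) 1 array stood far from the other 3 on the log2 scale. Chance alone puts about 1 in 20 groups there. The highest single mutant array was array 1 for clec-52, at 8.254 against 7.17 to 7.29 on the other 3, and for clec-66, at 10.869 against 10.26 to 10.30. The lowest single mutant array was array 4 for clec-7, at 4.712 against 5.18 to 5.19. The lowest wild type array was array 2 for clec-38, at 5.102 against 5.60 to 5.70, and for clec-82, at 3.608 against 4.26 to 4.39.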

How the results depend on the processing

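The count of C-type lectin genes called stayed 0 in all 3 comparisons under every alternative except replicates 3 and 4 alone, which gave 10 for the double mutant against the single mutant and 3 with wild type as its control. The replicate block changed no call of a member: it gave 14, 32 and 2 probe sets called in the 3 comparisons, beside 13, 26 and 3 without it. Counts over all probe sets moved more. The set of arrays as a block gave 48, 51 and 5, replicates 1 and 2 alone gave 0 in each, replicates 3 and 4 alone gave 1891, 197 and 13, and all 12 columns as separate arrays gave 31 and 43 in the comparisons of the double mutant. Leaving out 1 array gave 1 to 74 for the double mutant against the single mutant, the 74 without double mutant array 1-2 and the 1 without array 3 or array 4. It gave 2 to 34 against wild type, and 0 to 2 for the single mutant against wild type. Of the 36 largest differences (6 each way in each comparison), 641 recomputed values were obtained and 634 kept their direction. The other 7 all turned with replicates 1 and 2 alone, and other named members, such as clec-88, turned within a set too. They were clec-51 (0.32), clec-1 (-0.19), clec-174 (-0.39) and clec-85 (-0.73) for the double mutant against the single mutant, clec-231 (0.32) in the double mutant relative to wild type, and clec-231 (0.52) and clec-87 (0.55) for the single mutant against wild type. The cause was not tested. Low signal limits what can be seen for the 163 members that lay below the median of every array.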

Other observations

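A stretch of chromosome IV from clec-67 to clec-78 holds 20 genes in the gene table, 14 of them clec genes, of which 12 were measured. The stretch was chosen after its values were seen, so no test is given. The single mutant lay above wild type for 10 of the 12, with a median of 0.25 on the log2 scale. The double mutant lay above wild type for 9, with a median of 0.13, and above the single mutant for 5, with a median of -0.06. On replicates 1 and 2 alone the single mutant was above wild type for 11, with a median of 0.41, and on replicates 3 and 4 alone for 7, with a median of 0.14. Of the 6 members whose single mutant arrays all lay above wild type, clec-73, clec-76 and clec-79 are in this stretch. The differences of clec-73 and clec-79 were small, 0.34 and 0.19, at low mean signals of 3.54 and 3.61. Of the 10 members whose double mutant arrays all lay above wild type, clec-72, clec-74 and clec-76 are in the stretch. Over all genes the shares wholly above wild type were 0.9% in the single mutant and 1.6% in the double mutant. As the stretch was picked with these values in view, such counts within it describe that choice too.

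In the single mutant the largest differences from wild type within it were those of clec-76 (1.04), clec-74 (0.86) and clec-72 (0.75). In the double mutant they were those of clec-174 (1.40), clec-67 (0.84) and clec-76 (0.82). Both comparisons share the wild type arrays. On replicates 1 and 2 alone, clec-67, clec-72, clec-74 and clec-76 differed from wild type in the single mutant by 1.32, 1.32, 1.28 and 0.50. On replicates 3 and 4 alone these values were 0.11, 0.18, 0.44 and 1.57. The wild type arrays of clec-74 read 6.51, 7.40, 6.54 and 7.16, against 8.59, 7.88, 7.25 and 7.34 in the single mutant and 7.63, 7.61 and 7.73 in the double mutant. All double mutant arrays lay above wild type, and single mutant arrays 3 and 4 lay below wild type array 2. For clec-72 the wild type arrays read 8.72, 9.68, 9.07 and 9.45, against 10.76, 10.28, 9.52 and 9.35 in the single mutant and 9.81, 9.96 and 10.31 in the double mutant. The last gene of the stretch went the other way: clec-78 differed from wild type by -0.54 ± 0.29 in the single mutant and by -0.36 ± 0.31 in the double mutant. The genes srh-220, srh-222 and srh-223, of a family of chemoreceptors, inside the stretch differed from wild type by 0.13, -0.18 and 0.13 in the single mutant.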
